A study of Homo sapiens with 12 samples.

Results

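A375 cells come from a human malignant melanoma. The comparison described here sets its cells with YAP-2SA, a YAP carrying the S127A and S381A mutations, against cells with YAP-S127A, which carries the first mutation alone. The members are 6 of the 12 RNA-seq libraries of the series, 3 for each mutant, chosen by their titles. The other 6 libraries served as baselines. They are 3 of Control cells with the empty MSCV-IRES-Hygro vector, and 3 of cells with YAP-S94A,S127A, which cannot bind TEAD transcription factors. All 4 groups were transduced with a retroviral vector and kept as hygromycin-selected pools, and the replicates were plated separately from the same pool, so that p-values measure the spread between cultures of 1 transduction. The cells still carried their own YAP1 gene. The condition field of the 3 YAP-2SA libraries lists S94A as well, which their titles and the vector list of the study do not, and the titles were followed.

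YAP is a transcriptional co-activator at the end of the Hippo pathway. The LATS kinases phosphorylate it on serines that follow the motif HXRXXS, and phosphorylation of S127 holds it in the cytoplasm through 14-3-3 proteins. Phosphorylation of the second serine primes a phosphodegron, which is then phosphorylated by casein kinase 1 and read by the ubiquitin ligase subunit beta-TrCP. YAP that escapes both reaches the nucleus, where it binds DNA through TEADs, often beside AP-1 dimers. Known targets are CTGF, CYR61 and ANKRD1. The comparison asks what the loss of the second site adds to the loss of the first.

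The codons of both mutated serines are shown, since the second is the designed difference between the groups. They were read from YAP1 on chromosome 11 of GRCh37 with the GENCODE coding exons, as 15 bases before the serine codon and 12 after it, with that codon in capitals.
S127 codon: catgttcgagctcatTCCtctccagcttct
S381 codon: cactctcgagatgagAGTacagacagtgga
The first codon is at chr11:101984932-101984934 in coding exon 2, and the second at chr11:102098225-102098227, both on the plus strand. The second serine is S381 in the isoform of 488 residues and residue 397 in the isoform of 504 residues, so S381 of the records and S397 of the study are the same codon. Each of these 2 isoforms holds 5 HXRXXS motifs, and YAP-2SA has lost 2 of them. The other 3, at residues 61, 109 and 164, remained in both mutants.

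Promoters of 3 genes that rose in both steps are shown because they hold letters that TEADs and AP-1 bind. They are the RefSeq windows of GRCh38.p14 from 250 bases before to 50 after the start of CTGF (chr6:131951323-131951622, minus strand), ANKRD1 (chr10:90921038-90921337, minus strand) and CPA4 (chr7:130292911-130293210, plus strand). Capitals mark the TEAD letters GGAATG or their reverse complement CATTCC and the AP-1 letters TGANTCA, which read the same on both strands.
CTGF: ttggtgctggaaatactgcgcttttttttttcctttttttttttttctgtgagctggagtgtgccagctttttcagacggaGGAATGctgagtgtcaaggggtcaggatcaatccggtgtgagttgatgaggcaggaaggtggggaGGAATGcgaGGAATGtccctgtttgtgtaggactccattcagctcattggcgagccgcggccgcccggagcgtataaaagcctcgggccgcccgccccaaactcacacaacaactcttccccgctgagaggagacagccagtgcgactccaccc
ANKRD1: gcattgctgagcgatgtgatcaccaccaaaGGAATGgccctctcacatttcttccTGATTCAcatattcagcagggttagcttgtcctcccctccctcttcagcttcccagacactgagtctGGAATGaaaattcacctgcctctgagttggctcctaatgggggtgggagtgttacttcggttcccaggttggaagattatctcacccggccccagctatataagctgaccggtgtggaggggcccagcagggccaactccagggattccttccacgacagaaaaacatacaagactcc
CPA4: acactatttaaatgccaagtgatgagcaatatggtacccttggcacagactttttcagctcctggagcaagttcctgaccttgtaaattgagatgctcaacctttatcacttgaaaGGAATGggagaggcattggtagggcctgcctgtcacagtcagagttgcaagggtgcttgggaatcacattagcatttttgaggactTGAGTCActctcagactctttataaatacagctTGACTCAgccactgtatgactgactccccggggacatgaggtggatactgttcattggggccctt
The CTGF window holds the TEAD letters 3 times, the ANKRD1 window 2 times beside 1 AP-1 match, and the CPA4 window once beside 2 AP-1 matches. They are examples, and 7 other genes described below as higher in YAP-2SA (AMOTL2, AXL, KISS1, AJUBA, CAV1, EGFR and IL7R) have windows with neither motif.

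The deposited unit is log2(FPKM + 1), where FPKM is fragments scaled to transcript length and to mapped reads, and levels are given below as FPKM. Of 31585 loci, 15055 reached 1 FPKM in 3 or more libraries and were tested with limma. A locus was called at a Benjamini-Hochberg adjusted p under 0.05 with more than a 2-fold ratio of the group mean FPKM. Differences are in log2(FPKM + 1) and carry their SE, and the added 1 makes the change of a low gene look smaller than it is. Group means are given ± SD over 3 libraries. Since reads per locus are not given, library depth is unknown; 20161 to 20656 loci per library were above 0. Correlations across loci were 0.968 to 0.973 between YAP-2SA libraries, 0.965 to 0.970 between YAP-S127A libraries and 0.918 to 0.930 between the groups. Of the melanoma markers, SOX10, S100B, S100A1 and MIA were expressed in Control and YAP-S127A. The FPKM sum of the 12 melanoma markers was 755 to 935 in YAP-S127A and 229 to 252 in YAP-2SA. Endothelial markers summed to 1.04 at most.

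YAP1 (GRCh37 chr11:101981178-102104155, plus strand) was at 159, 159 and 187 FPKM in YAP-S127A and 129.7, 149 and 136 in YAP-2SA. The value sums the cell's own transcript and the vector's. The YAP-2SA libraries were all below the YAP-S127A libraries, at 82.1% of their mean, which gave a two-sided exact permutation p of 0.1, the smallest that 3 libraries against 3 allow. YAP1 was at 34.1, 33 and 172 FPKM in Control, so the library labelled Control replicate 3 had the level of YAP-expressing cells. In limma the YAP1 difference was -0.28 ± 0.49 with an adjusted p of 0.706, and an adjusted p of 0.0207 without Control replicate 3. The class counts are given with and without that library, and a gene given a class below is marked where that class changed without it.

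YAP-2SA changed gene expression in both directions relative to YAP-S127A. Of the 15055 loci, 778 (5.17%) were higher and 894 (5.94%) were lower in YAP-2SA. Each called locus was then placed by what YAP-S127A alone did relative to Control. A locus was graded where YAP-S127A had already moved it the same way at an adjusted p under 0.05. It was YAP-2SA only where YAP-S127A did not differ from Control at that threshold, the 95% interval of that difference lay within 1.5-fold, and YAP-2SA differed from Control. It was turned back where YAP-S127A had moved it the opposite way. All others were unresolved. Of the rises 45% were graded and 23.8% YAP-2SA only, and of the falls 15.7% were graded and 47.9% YAP-2SA only, which is the background for the classes within each gene list below. The YAP-S127A libraries enter both steps with opposite signs, which works against graded calls and for turned back ones.

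The rises and falls were made up differently. Among the 778 higher loci, 350 (2.32% of all tested) were graded and 185 (1.23%) were YAP-2SA only, with 13 turned back and 230 unresolved. A rise can pass the filter of 1 FPKM in 3 libraries through the YAP-2SA libraries alone, where it is high. The Control and YAP-S127A means were both under 1 FPKM at 122 of the 185 and at 70 of the 350. The class counts of the rises are thus not comparable with those of the falls. Among the 894 lower loci, 140 (0.93%) were graded and 428 (2.84%) were YAP-2SA only, with 16 turned back and 310 unresolved. In the background of the first step, YAP-S127A was above Control at an adjusted p under 0.05 at 687 loci (4.56%) and below it at 263 (1.75%). Of the 687, 604 rose further in YAP-2SA and 48 had a second step within 1.5-fold. Of the 263, by the same rules, 187 fell further, 15 went back, 37 had the interval within 1.5-fold and 24 were not resolved. Without Control replicate 3 the counts were 294 graded and 160 YAP-2SA only loci among the rises, and 93 and 390 among the falls. Over 29 alternatives, graded loci outnumbered YAP-2SA only loci among the rises in 26. The order turned with no filter on low values (372 graded against 616 YAP-2SA only), with a filter at 0.1 FPKM (379 against 524) and with no fold threshold (604 against 1611), while a filter at 5 FPKM gave 237 against 32. Among the falls YAP-2SA only loci were the more in 28 of 29 alternatives, and the order turned under a narrower class margin (140 graded against 86).

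**Figure D1:**
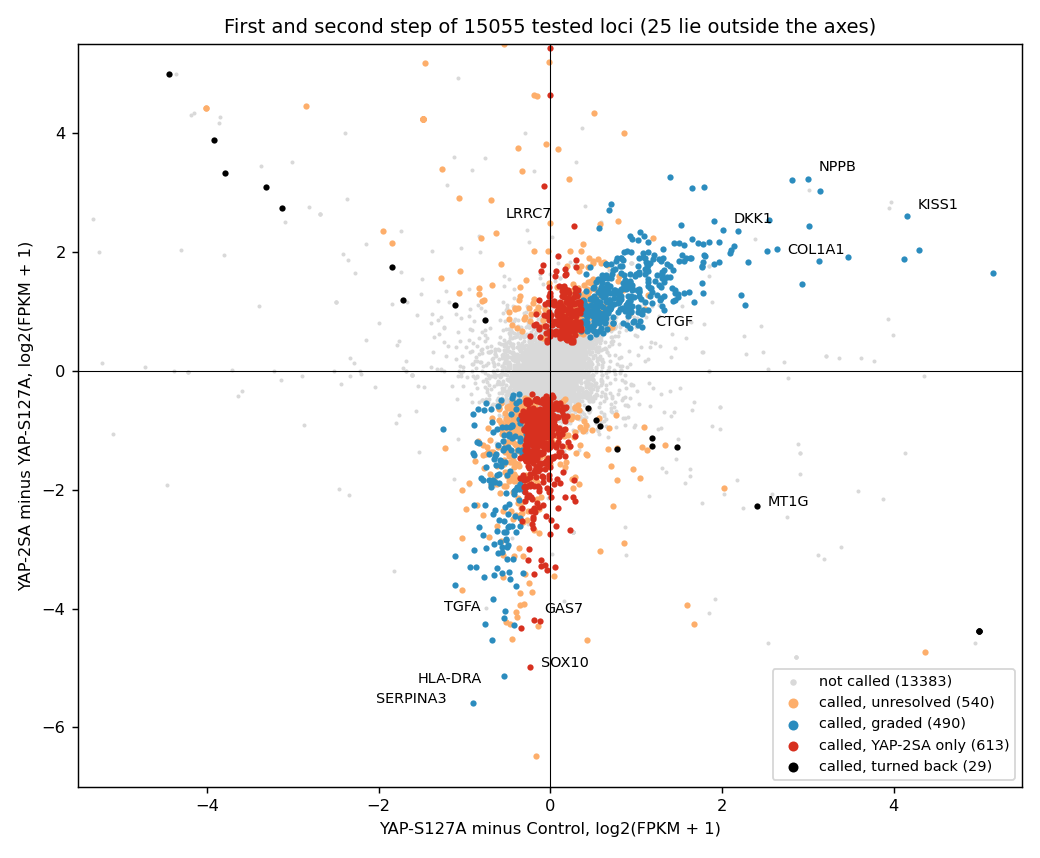
Difference of each tested locus between YAP-S127A and Control (x axis) and between YAP-2SA and YAP-S127A (y axis), both in log2(FPKM + 1), coloured by class. The graded rises (blue, upper right) spread along both axes, while the YAP-2SA only falls (red) run down a narrow band around 0 on the x axis.

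**Figure D2:**
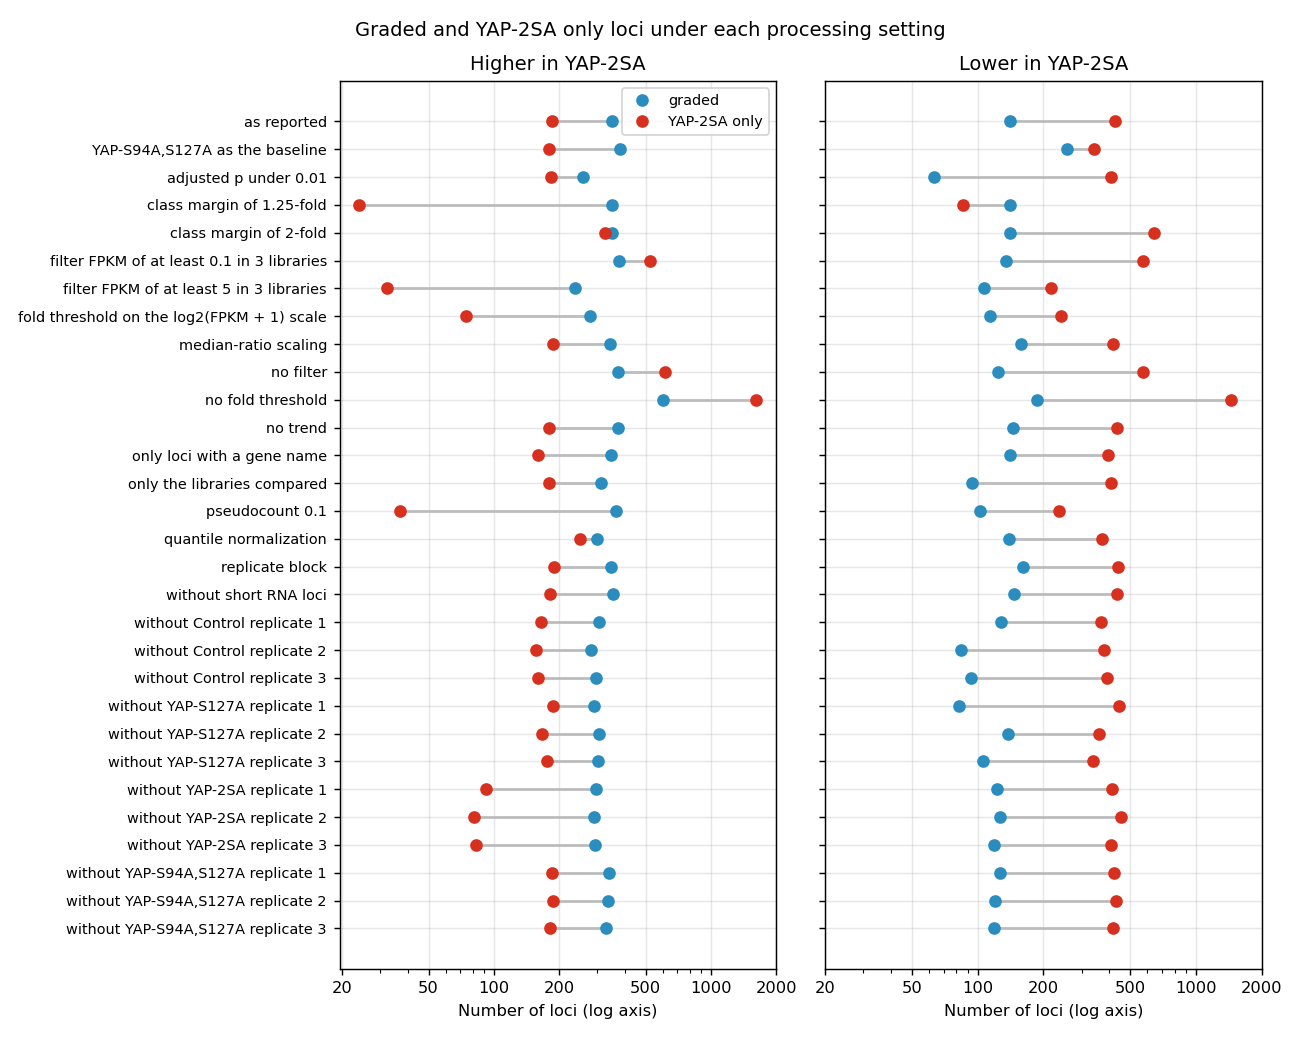
Number of graded (blue) and YAP-2SA only (red) loci on a log axis under each processing setting, for loci higher (left) and lower (right) in YAP-2SA. Among the rises the graded count is the larger in 26 of 29 alternatives, and among the falls the YAP-2SA only count is the larger in 28 of 29.

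Within the graded rises, YAP-S127A had reached a median of 39.2% of the total rise from Control on the log2 scale, and within the graded falls 22.8% of the total fall. The median level of the graded rises was 0.814 FPKM in Control, 3.21 in YAP-S127A and 11.3 in YAP-2SA. For the graded falls it was 15.5, 10.7 and 0.990 FPKM. The YAP-2SA only falls had medians of 4.90, 4.36 and 1.16 FPKM. The YAP-2SA only rises were low, with medians of 0.545, 0.685 and 2.12 FPKM, and at 122 of the 185 both baselines were under 1 FPKM. At 70 of the 185 all YAP-S127A libraries were above all Control libraries, and at such levels the added 1 shrinks a first step. With 0.1 added in place of 1, the YAP-2SA only rises fell from 185 to 37 and the YAP-2SA only falls from 428 to 237.

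Established YAP targets rose in both steps. CTGF, a matricellular growth factor, was at 12.7, 12.2 and 12.7 FPKM in Control, 26.6, 23.5 and 24.3 in YAP-S127A and 52.1, 66.1 and 55.5 in YAP-2SA. The 3 groups did not overlap, and the second step was 2.33-fold (1.19 ± 0.10, adjusted p = 8.29e-06). All YAP-2SA libraries were above or all below the YAP-S127A libraries at 43.6% of the tested loci, so separation alone is common in these data. CYR61, which encodes a related secreted protein, was at 15.3, 15.6 and 19.8, then 41.7, 39.3 and 36.1, then 96.4, 133 and 88.1 FPKM, a second step of 2.72-fold (adjusted p = 5.64e-05). Its locus is shared with an accession of another transcript. ANKRD1, a nuclear ankyrin repeat protein, rose from 0.744 ± 0.47 to 4.0 ± 0.295 and 17.1 ± 3.13 FPKM, with a second step of 4.27-fold (adjusted p = 8.04e-05). AXL, a receptor tyrosine kinase, was at 45.4 ± 4.1, 93.1 ± 3.24 and 187 ± 5.58 FPKM, with a second step of 2.01-fold (adjusted p = 3.63e-06). AMOTL2, a scaffold that binds YAP, was at 51.7, 40.3 and 54.2 FPKM in YAP-S127A and 97.1, 89.1 and 86.2 in YAP-2SA, 1.86-fold higher (adjusted p = 0.000218) and short of the fold threshold. The ratio of AXL is close to 2, and its call was lost in 5 of 26 alternatives: with median-ratio scaling, with quantile normalization, with the fold threshold on the log2(FPKM + 1) scale, without YAP-S127A replicate 1 and without YAP-2SA replicate 2.

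The target list of Wang and colleagues had 9 of 22 tested loci called higher, all 9 graded, and 1 called lower, against 5.17% and 5.94% of all loci. Its median second step was 0.744 and its median first step 0.546, where the medians over all tested loci were 0.020 and -0.0023. Besides the genes above, CRIM1, a membrane protein that binds BMPs, reached 128 ± 5.08 FPKM from 48.3 ± 2.56, and F3, the tissue factor that starts coagulation, reached 16.6 ± 0.529 from 4.04 ± 0.573. The matrix gene CCDC80, the TGF-beta ligand gene TGFB2 and the kinase gene NUAK2 were graded too. The member that went down was IGFBP3, which binds insulin-like growth factors, at 47.3 ± 5.87 in Control, 25.1 ± 3.18 in YAP-S127A and 8.81 ± 0.606 in YAP-2SA, also graded. The list of Cordenonsi and colleagues had 11 of 44 higher, 8 of them graded, and 1 lower. Its 3 YAP-2SA only rises were GAS6, a ligand of AXL, at 3.42 ± 0.484, 4.62 ± 0.456 and 11.5 ± 0.375 FPKM, the caveolar gene SDPR, listed at 0 in Control, at 0.216 ± 0.0634 and 1.89 ± 0.439, and the stress-response gene NDRG1 at 25.8 ± 1.42, 25.5 ± 3.29 and 62.2 ± 5.16. GAS6 became unresolved without Control replicate 3. SDPR was near the floor, with its YAP-S127A libraries all above Control. It was graded with 0.1 added in place of 1, and unresolved without YAP-S127A replicate 1 or 3. EMP2, a membrane protein, was the member that fell in YAP-2SA only, from 24 ± 1.48 to 10.8 ± 0.984 FPKM.

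**Figure D3:**
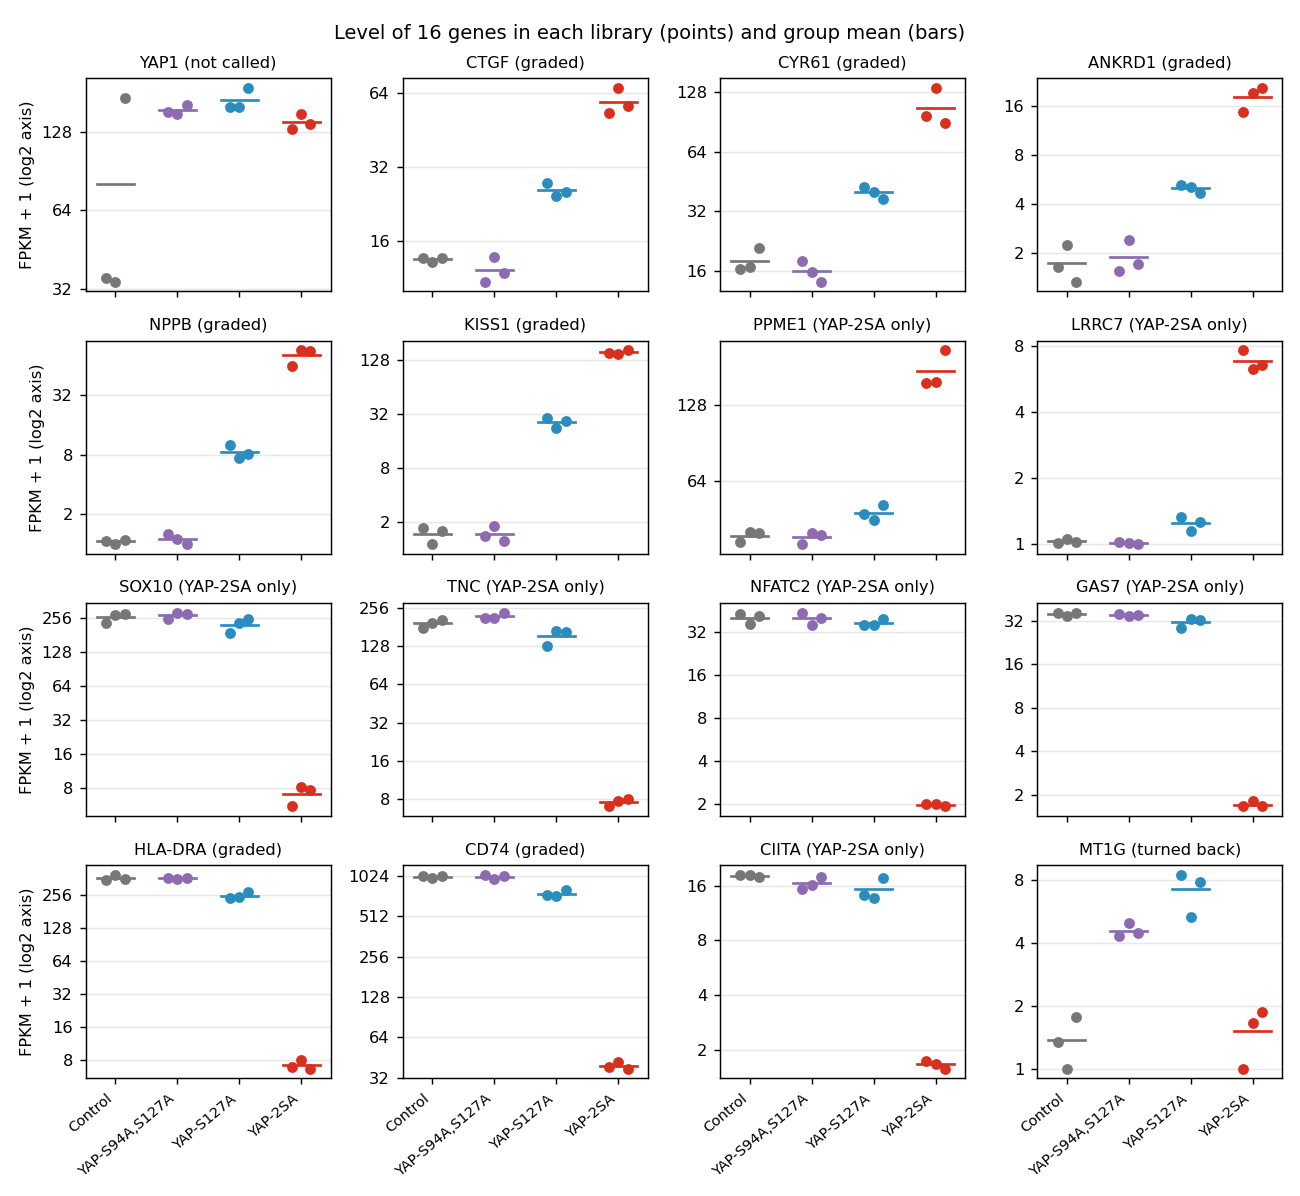
FPKM + 1 of 16 genes on a log2 axis in each library (points) with the group mean (bar), for Control, YAP-S94A,S127A, YAP-S127A and YAP-2SA. The YAP targets in the top rows climb in 2 steps, SOX10, TNC, NFATC2 and GAS7 drop in YAP-2SA, and the third Control point of YAP1 lies with the YAP-expressing cells.

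Among regulators of YAP itself more loci were higher than lower. Of 33 tested loci of the Hippo pathway and YAP partners, 5 were higher (15.2%, against 5.17% of all loci), all graded, and 2 were lower (6.06% against 5.94%). WWC1, which encodes the LATS activator KIBRA, was at 1.01 ± 0.235, 3.92 ± 0.331 and 9.5 ± 1.42 FPKM in Control, YAP-S127A and YAP-2SA. The LIM proteins AJUBA and WTIP, which bind LATS, went to 50.9 ± 1.9 from 21.1 ± 0.314 and to 13.6 ± 0.514 from 4.97 ± 0.318 FPKM. VGLL2, a TEAD co-factor of muscle, was at 0.757 ± 0.185 FPKM in YAP-S127A and 11.6 ± 3.64 in YAP-2SA, graded by the fit (first step adjusted p = 0.0432). It kept that class in 8 of the 23 alternatives that tested it, and was unresolved without any single library of Control, YAP-S127A or YAP-S94A,S127A. WWTR1, which encodes the YAP paralogue TAZ, fell from 164, 163 and 155 to 61.7, 56.3 and 58.3 FPKM, 2.73-fold (adjusted p = 9.77e-08), from 199 ± 14.3 in Control. Its first step was small and put it among graded loci, and among YAP-2SA only loci without Control replicate 3. AMOT, a scaffold that binds YAP, was at 10.7 ± 0.943, 11 ± 0.19 and 2.24 ± 0.284 FPKM and fell in YAP-2SA only. None of the 7 loci of the phosphodegron machinery, which covers casein kinase 1 and the beta-TrCP ligase, was called, and 1 was higher in limma at an adjusted p under 0.05, short of 2-fold. At the shares of all loci, few of 7 would be called. With no fold threshold, 2757 of all 15055 loci were higher at that adjusted p.

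AP-1 genes were called in both directions. JUN, FOSL2, JDP2 and ATF3 rose and were graded. JUN was at 13.2, 11.3 and 12.3 FPKM in YAP-S127A and 35.5, 32.4 and 29.1 in YAP-2SA, 2.64-fold higher (adjusted p = 1.47e-06), from 4.85 ± 0.141 in Control. FOSL2 was at 2.84 ± 0.197, 9.28 ± 0.736 and 26 ± 2.72 FPKM across Control, YAP-S127A and YAP-2SA, and JDP2 at 0.565 ± 0.127, 2.51 ± 0.417 and 8.2 ± 1.13. FOS and FOSB went down, with FOS from 2.82 ± 0.667 to 0.382 ± 0.0913 FPKM and unresolved, and FOSB from 2.63 ± 0.367 to 0.693 ± 0.13 in YAP-2SA only. ATF3 lost its graded class without Control replicate 3. In all, 4 of 14 tested loci were higher (28.6%) and 2 lower (14.3%), against 5.17% and 5.94% of all loci.

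EGF family genes were also called in both directions. NRG1, the ligand neuregulin, was at 0.997, 0.62 and 0.892 FPKM in Control, 7.16, 7.04 and 6.19 in YAP-S127A and 27.7, 31.3 and 30.8 in YAP-2SA. Its libraries did not overlap and both steps were about 2 on the log2 scale, 2.09 ± 0.097 and then 1.99 ± 0.097. EGFR, the receptor, rose from 4.53 ± 1.02 to 13.6 ± 2.88 and 42 ± 5.43 FPKM, and its ligand HBEGF from 2.45 ± 0.521 to 4.42 ± 0.532 and 13.9 ± 1.77. TGFA, another EGFR ligand, went the other way. It was at 121, 142 and 147 FPKM in Control, 85.9, 100.1 and 96.5 in YAP-S127A and 4.37, 4.51 and 5.52 in YAP-2SA, a 19.6-fold second fall (adjusted p = 8.62e-10). ERBB3, the neuregulin receptor of neural crest cells, went from 90.1 ± 11.4 to 5.88 ± 1.42 FPKM (15.3-fold), and PDGFRB, a platelet-derived growth factor receptor at a locus shared with CSF1R, rose from 4.74 ± 0.526 to 10.4 ± 2.06. Of 21 tested loci in this list, 6 were higher (28.6%), 5 of them graded, and 4 were lower (19%), against 5.17% and 5.94% of all loci.

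Genes induced by ERK signalling, and the feedback inhibitors among them, were lower more often than higher. Of 20 tested loci, 6 were lower and 1 higher, against 5.94% and 5.17% of all loci, and the median second step was -0.647 beside a median first step of -0.127. SPRY4, a Sprouty inhibitor of receptor signalling, was at 54.6, 81.5 and 77.8 FPKM in YAP-S127A and 9.09, 9.55 and 7.92 in YAP-2SA, 8.05-fold lower (adjusted p = 2.77e-07). SPRY2 fell from 119 ± 1.47 to 25.5 ± 3.12 FPKM in YAP-2SA only. EGR1, EGR3 and IER3, which are immediate early genes, went from 10.5 ± 1.75 to 1.76 ± 0.223, from 2.18 ± 0.871 to 0.0495 ± 0.0152 and from 167 ± 6.79 to 48.8 ± 3.76 FPKM. SPRY4, EGR1 and EGR3 were unresolved and IER3 was YAP-2SA only, or unresolved without Control replicate 3. DUSP5, a phosphatase that acts on ERK, was the member that rose, from 8.49 ± 1.19 to 21.7 ± 4.91 FPKM. With YAP-S94A,S127A as the baseline in place of Control, SPRY4, SPRY2, EGR1, EGR3 and IER3 were all graded. SPRY4 was at 99.7, 126 and 122 FPKM there and at 91.3, 116 and 110.5 in Control.

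Of the 8 largest rises of named genes by fit 6 were graded, and these started near 0 in Control. NPPB, a natriuretic peptide precursor of the heart, was at 0.0852, 0 and 0.106 FPKM in Control, 9.12, 6.42 and 7.24 in YAP-S127A and 61.7, 90.2 and 89.1 in YAP-2SA, 10.6-fold in the second step (adjusted p = 1.55e-07). The cardiac and slow-muscle troponin genes followed the same course. TNNT2, at a locus shared with 1 accession, was at 0.331 ± 0.19, 8.35 ± 0.664 and 88.4 ± 27.8 FPKM, and TNNC1 at 0.377 ± 0.33, 3.27 ± 0.771 and 35 ± 5.92. MME, the surface peptidase neprilysin, was at 0.185 ± 0.0767, 9.85 ± 3.35 and 85.4 ± 17.7 FPKM, the chemokine gene CXCL14 at 0.263 ± 0.183, 3.33 ± 0.177 and 36 ± 6.44, and the ligand gene TNFSF18 at 0.125 ± 0.111, 2.0 ± 0.744 and 28.4 ± 10.6. KISS1, which encodes the metastasis suppressor kisspeptin, was at 0.698, 0.132 and 0.581 FPKM in Control, 27.9, 21.3 and 25.4 in YAP-S127A and 154, 148 and 163 in YAP-2SA. Its first step, 4.15 ± 0.17, was above its second, 2.60 ± 0.17. DKK1, a secreted Wnt inhibitor, rose from 6.42 ± 1.46 to 28.8 ± 6.03 and 151 ± 9.56 FPKM. GPR15 and ICA1, the others of the 8, were unresolved. GPR15 was at 9.81, 0 and 0.00139 FPKM in Control, 0, 0 and 4.47 in YAP-S127A and 12.9, 11.2 and 33.5 in YAP-2SA, with Control and YAP-S127A overlapping. Its adjusted p of 0.0269 went above 0.05 when YAP-S127A replicate 1 (0.0855) or 2 (0.0877) or YAP-2SA replicate 1 (0.0526) or 3 (0.0959) was left out.

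Among the better-expressed YAP-2SA only rises was PPME1. The gene encodes a methylesterase of protein phosphatase 2A and was at 35.7, 39.1 and 38.7 FPKM in Control, 46.2, 43.7 and 50.4 in YAP-S127A and 157, 157 and 211 in YAP-2SA, 3.74-fold higher (adjusted p = 4.30e-07). Its YAP-S127A libraries were all above its Control libraries, by 0.30 ± 0.11, but short of the threshold (adjusted p = 0.152), and it was unresolved without Control replicate 3. PROCR, the endothelial protein C receptor, was at 15.2 ± 0.475, 14.9 ± 0.946 and 34.5 ± 4.34 FPKM, and HMGCS1, an enzyme of cholesterol synthesis, at 15.7 ± 0.766, 19.9 ± 2.47 and 45.2 ± 0.468. HMGCS1 had its YAP-S127A libraries all above Control, and it was graded with YAP-S94A,S127A as the baseline. The other leading members were low. LRRC7, a synaptic scaffold, was at 0.0161, 0.0519 and 0.0203 FPKM in Control, 0.335, 0.153 and 0.259 in YAP-S127A and 6.6, 5.29 and 5.5 in YAP-2SA, which is 23.3-fold in the second step, while its YAP-S127A libraries were also all above Control. With 0.1 added in place of 1, LRRC7 was graded. RARRES2 and SAA1 were at 0.163 ± 0.0761 and 0.118 ± 0.106 FPKM in YAP-S127A and at 2.81 ± 0.444 and 2.58 ± 0.43 in YAP-2SA.

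The melanocyte and neural crest lineage genes moved in both directions. SOX10 (GRCh37 chr22:38366693-38383429, minus strand), the transcription factor that specifies the neural crest, was at 234, 274 and 281 FPKM in Control, 188, 230.4 and 255 in YAP-S127A and 4.53, 7.25 and 6.69 in YAP-2SA. Control and YAP-S127A overlapped, with a first step of -0.23 ± 0.15 (adjusted p = 0.456), while YAP-2SA was 36.4-fold below YAP-S127A (-4.99 ± 0.15, adjusted p = 5.98e-09). It was placed as YAP-2SA only, and as unresolved without Control replicate 3, and it kept that class in 13 of the 26 alternatives run on single genes. TFAP2B and SOX5, lineage transcription factors, went from 23.5 ± 0.489 to 0.313 ± 0.0377 and from 55.7 ± 9.92 to 3.83 ± 1.21 FPKM. FOXD3, SOX2 and TFAP2C fell in YAP-2SA only, to 1.1 ± 0.211, 1.76 ± 0.209 and 34.5 ± 4.39 FPKM from 8.12 ± 1.08, 7.33 ± 0.962 and 82.2 ± 8.76. FOXD3 was unresolved without Control replicate 3. SOX9, the factor that is often high where SOX10 is low, rose from 0.462 ± 0.0291 to 3.52 ± 0.851 and 10.3 ± 1.71 FPKM and was graded. MITF, the master regulator of pigment cells, was at 11.9, 13.9 and 14.6 FPKM in YAP-S127A and 33.9, 30.1 and 41 in YAP-2SA, 2.6-fold higher (adjusted p = 0.00292). The melanosome genes GPNMB, MLPH and SLC24A5 rose too, to 78.7 ± 2.68, 7.17 ± 1.17 and 18.9 ± 2.81 FPKM. In all 7 of 23 tested loci of this list were higher (30.4%, against 5.17% of all loci) and 8 were lower (34.8%, against 5.94%). Both shares were above those of all loci, and the list had no common direction.

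Glial and neural crest surface genes were mainly lower, 11 of 17 tested loci against 5.94% of all loci, with 3 higher. The median second step was -1.49 and the median first step -0.10. S100B, a calcium-binding protein used as a melanoma marker, was at 41.3, 47.6 and 51.7 FPKM in Control, 30.0, 41 and 30.3 in YAP-S127A and 0.79, 1.03 and 0.606 in YAP-2SA, 41.8-fold lower in the second step (adjusted p = 5.98e-09). NES, the intermediate filament nestin, fell from 17.1 ± 2.07 to 1.35 ± 0.0334 FPKM and the cadherin CDH19 from 5.07 ± 0.756 to 0.0599 ± 0.0614. The adhesion genes NRCAM, CADM1 and CADM3, with the fatty acid binding gene FABP7, fell in YAP-2SA only. Without Control replicate 3, CDH19 and CADM3 were unresolved. CDH19 was graded as reported and kept that class in 13 of the 26 alternatives run on single genes. L1CAM went against the list, from 12.4 ± 0.407 to 32.2 ± 5.21 and 101 ± 8.8 FPKM, and was graded. Of the 9 melanoma markers tested, 4 were lower and 1, MITF, was higher. S100A1, a further S100 protein, was graded at 101 ± 14, 46.3 ± 7.41 and 2.91 ± 0.623 FPKM, and the locus of the secreted marker MIA, which it shares with EGLN2 and RAB4B, at 437 ± 34.4, 342 ± 35.7 and 55.1 ± 3.21. Without Control replicate 3 that locus was YAP-2SA only. KRT14, a keratin of basal epithelium, was at 8.37 ± 2.37 FPKM in YAP-S127A and 0.434 ± 0.102 in YAP-2SA, and KRT5 at 0.305 ± 0.0982 and 1.56 ± 0.168. Epithelial markers summed to 30.3 to 32.7 FPKM in YAP-S127A and 23.6 to 30.5 in YAP-2SA. The part of other cell types in these results was not tested, and fewer cells of a type and less RNA per cell cannot be told apart in bulk samples.

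**Figure D4:**
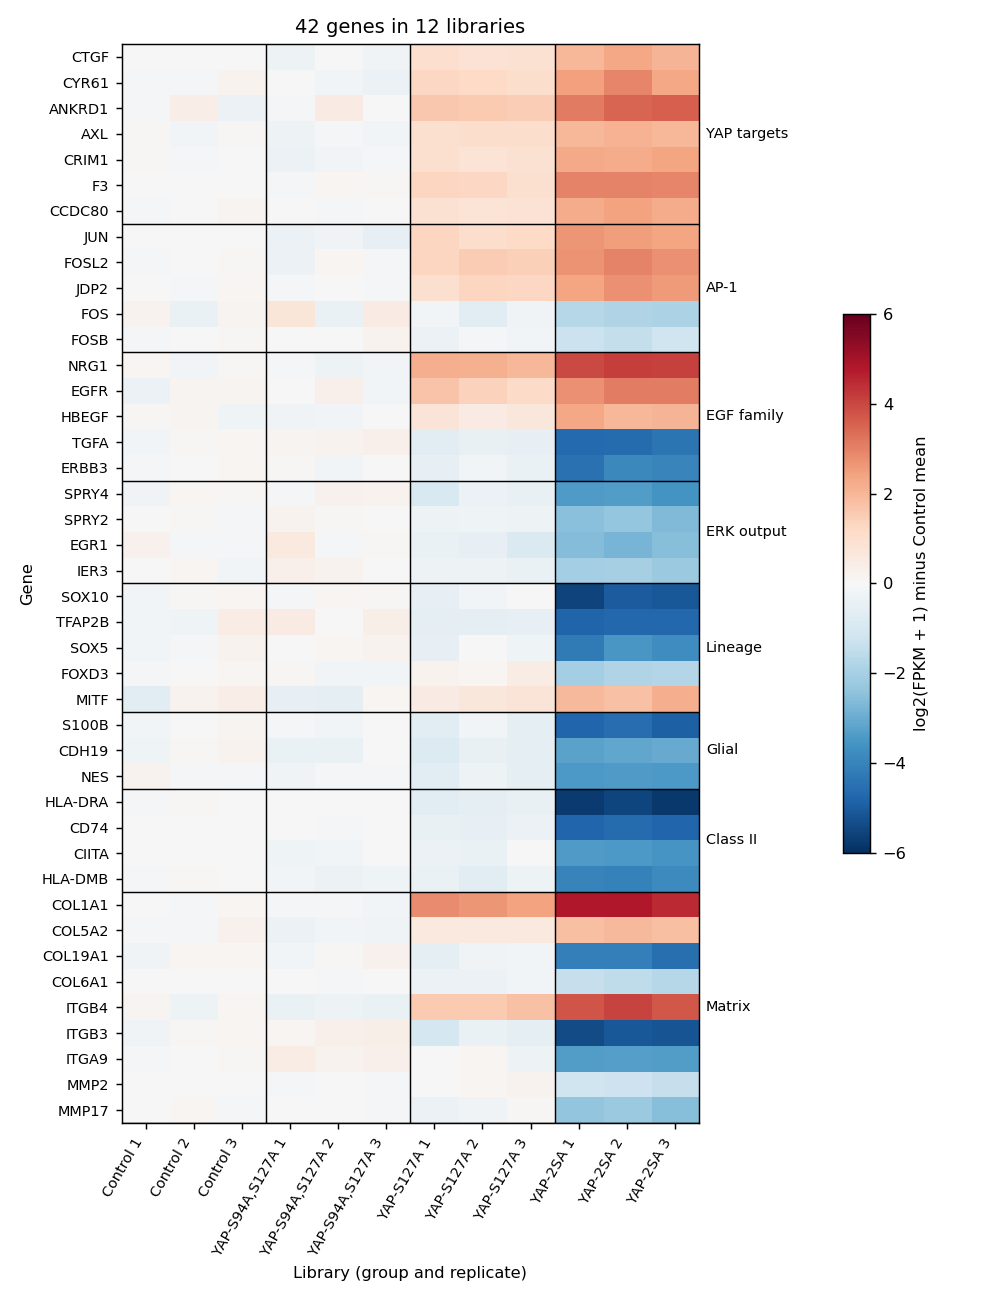
Difference of 42 named genes from the Control mean in each of the 12 libraries, in log2(FPKM + 1), red for higher and blue for lower on a scale from -6 to 6. YAP targets, JUN, NRG1 and COL1A1 show a paler and a darker red block for YAP-S127A and YAP-2SA, while SOX10, S100B, HLA-DRA and ITGA9 are dark blue in the YAP-2SA libraries and pale elsewhere.

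MHC class II genes were lower in YAP-2SA at 11 of 13 tested loci, against 5.94% of all loci, and 8 of the 11 were graded. Class II molecules present peptides to CD4+ T cells, and some melanomas express them. HLA-DRA (GRCh37 chr6:32407655-32412823, plus strand) was at 353, 392 and 360.3 FPKM in Control, 240.2, 247 and 273 in YAP-S127A and 5.89, 7.12 and 5.7 in YAP-2SA. The groups did not overlap, and a first step of -0.54 ± 0.079 (adjusted p = 0.0021) was followed by one of -5.14 ± 0.079 (adjusted p = 5.84e-11), 40.7-fold. CD74, the invariant chain that guides class II molecules, was at 1014 ± 26.4, 757 ± 36.9 and 38.1 ± 2.55 FPKM with the same order. The locus of HLA-DRB1 and HLA-DRB5, near-identical copies whose reads cannot be told apart, went from 1281, 1360.0 and 1434 to 4.29, 34.4 and 18 FPKM. CIITA (GRCh37 chr16:10960079-11036878, plus strand), the transactivator of class II genes, was at 17.3, 17.2 and 16.8 FPKM in Control, 13.2, 12.7 and 16.7 in YAP-S127A and 0.735, 0.671 and 0.571 in YAP-2SA. Its fall, 21.6-fold (adjusted p = 5.50e-09), was placed as YAP-2SA only, although the YAP-S127A libraries were all below Control by -0.26 ± 0.097 (adjusted p = 0.166). HLA-DPB1 was the other member of that class, at 76.6 ± 4.98, 66.5 ± 8.51 and 24.5 ± 2.35 FPKM. The median over the list was -0.43 in the first step and -3.17 in the second. Without Control replicate 3, HLA-DMB, HLA-DQB1 and HLA-DOA became unresolved. The 8 leukocyte markers, of which the lysozyme gene LYZ alone was tested, summed to 11.5 to 13 FPKM in YAP-S127A and 2.53 to 3.32 in YAP-2SA, with 4 and 3 of them listed at 0 in every library of the group. Their part in the class II result was not tested.

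No class I gene was called. None of 18 tested loci for class I chains and peptide loading was called, where 5.17% of all loci were higher and 5.94% lower. At those shares few of 18 loci would be called. In limma 3 were higher and 3 lower at an adjusted p under 0.05, and 4 and 4 at an unadjusted one, all short of 2-fold. Their median second step was 0.040. At an adjusted p under 0.05 with no fold threshold, 2757 of all 15055 loci were higher and 2179 lower. Interferon-stimulated genes had 5 of 37 loci higher (13.5%) and 3 lower (8.11%). GBP2, at a locus shared with GBP7, and ISG20, an exonuclease, went from 8.72 ± 1.3 to 0.236 ± 0.13 and from 75.3 ± 4.66 to 15.9 ± 1.42 FPKM, whereas IFITM2, ISG15 and IFIT3 rose to 97.5 ± 3.97, 24.8 ± 1.5 and 14.5 ± 1.06 from 37.7 ± 2.43, 11.1 ± 1.87 and 6.79 ± 0.254.

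Matrix and adhesion genes were called in both directions. COL1A1, the main fibrillar collagen chain, was at 0.301, 0.236 and 0.428 FPKM in Control, 8.41, 7.28 and 6.11 in YAP-S127A and 36.4, 36 and 27.9 in YAP-2SA, 4.6-fold in the second step (adjusted p = 6.61e-07). COL5A2 was the other collagen that rose, to 72.4 ± 3.76 from 29.5 ± 0.226 FPKM. Of 21 tested collagen loci 2 were higher (9.52%) and 8 lower (38.1%), against 5.17% and 5.94% of all loci. Of the falls 4 were YAP-2SA only, 4 unresolved and none graded. COL19A1 went from 19.8, 25.2 and 26 to 0.791, 0.751 and 0.336 FPKM, 37.8-fold, and COL6A1 from 33.3 ± 2.79 to 13.5 ± 1.71. ITGB4, the integrin chain of hemidesmosomes, rose from 3.45 ± 0.744 to 12.8 ± 0.907 and 63.3 ± 8.44 FPKM, and LAMA5, a laminin chain, from 5.46 ± 0.863 to 12.1 ± 1.59 and 43.7 ± 2.31. ITGB3, the chain of the vitronectin receptor, at a locus shared with C17orf57, went the other way, at 44.4, 70.6 and 61.6 FPKM in YAP-S127A and 1.24, 1.77 and 1.63 in YAP-2SA, and was graded, or unresolved without Control replicate 3. ITGA9, a tenascin receptor chain, was at 11.4, 12.2 and 12.5 FPKM in Control, 11.8, 13.4 and 9.61 in YAP-S127A and 0.292, 0.307 and 0.271 in YAP-2SA. Control and YAP-S127A overlapped and YAP-2SA was 39.9-fold lower (adjusted p = 6.68e-09), as YAP-2SA only. With YAP-S94A,S127A as the baseline, ITGA9 was graded.

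Its ligand TNC, the glycoprotein tenascin C, was at 177, 193 and 205 FPKM in Control, 126.6, 167 and 163 in YAP-S127A and 6.03, 6.79 and 7.01 in YAP-2SA. TNC was 23-fold lower in the second step (adjusted p = 8.62e-10), with a first step of -0.34 ± 0.10 (adjusted p = 0.0918) that became graded when YAP-S94A,S127A took the place of Control as baseline. Of 25 loci for matrix proteases and their inhibitors 6 were lower (24%, against 5.94% of all loci), all in YAP-2SA only, and 5 were higher (20%, against 5.17%), 3 graded and 2, ADAMTS1 and ADAMTS5, YAP-2SA only. Among the falls were the gelatinase MMP2 from 98.2 ± 8.58 to 37.4 ± 2.45 FPKM, and the inhibitor TIMP3 from 150.2 ± 10.7 to 63.2 ± 2.05. ADAMTS12 and MMP3 were graded rises, to 24.2 ± 1.82 and 3.55 ± 1.04 FPKM. The caveolar locus of CAV1 and CAV2, whose products shape membrane pits, was at 46.7, 44.9 and 45.8 FPKM in Control, 150.0, 129 and 138 in YAP-S127A and 509, 491 and 554 in YAP-2SA, a graded rise. Of 33 loci for the actin cytoskeleton and SRF targets 6 were higher (18.2%, against 5.17% of all loci) and none lower (against 5.94%). TAGLN was at 2.49 ± 0.30, 5.41 ± 0.51 and 15.7 ± 2.76 FPKM and MYL9, a myosin light chain, at 3.16 ± 1.21, 6.66 ± 0.155 and 20.7 ± 1.95. At an adjusted p under 0.05 and with no fold threshold, 23 of the 33 were higher and 3 lower, beside 2757 and 2179 of all 15055 loci.

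Secreted factors outside the matrix were higher or lower by gene. Plasminogen activation and coagulation genes had 6 of 14 loci higher (42.9%, against 5.17% of all loci), 3 graded and 2 YAP-2SA only. In that list 1 was lower (7.14%, against 5.94% of all loci). PROS1, the anticoagulant protein S, was at 3.6 ± 0.387, 4.25 ± 1.09 and 12.5 ± 1.19 FPKM in Control, YAP-S127A and YAP-2SA, as a YAP-2SA only rise. SERPINE2, a protease inhibitor, was at 1709, 1882 and 2083 FPKM in Control, 1182, 1268 and 1297 in YAP-S127A and 369, 384 and 365 in YAP-2SA, a graded fall of 3.35-fold in the second step (adjusted p = 1.00e-07), and its 3 groups did not overlap. Matricellular and metastasis genes had 7 of 17 higher (41.2%), all graded, and 3 lower (17.6%), against 5.17% and 5.94% of all loci. In the TGF-beta and BMP list 5 of 39 were higher (12.8%, against 5.17% of all loci) and 3 lower (7.69% against 5.94%). GDF15, a stress-induced TGF-beta family member, was at 1.49, 2.71 and 2.16 FPKM in Control, 11, 16.2 and 12.4 in YAP-S127A and 53.3, 101 and 66 in YAP-2SA, and FSTL3, which binds activin, at 10.4 ± 0.998, 27.2 ± 0.352 and 66.4 ± 6.28, both graded. BMP4, a ligand of the family, was at 1.5 ± 0.693, 2.06 ± 0.105 and 8.87 ± 1.56 FPKM and ID4, a BMP target, at 3.78 ± 0.765, 2.44 ± 0.544 and 0.173 ± 0.0225, both unresolved. Of 14 cytokine loci 3 were higher (21.4%) and 2 lower (14.3%), all low. IL1B was at 0.104 ± 0.146 FPKM in YAP-S127A and 1.41 ± 0.406 in YAP-2SA, whereas IL1A was at 0.70 ± 0.133 and 0.077 ± 0.0404.

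Of 16 checkpoint ligand loci 3 were higher (18.8%) and none lower, against 5.17% and 5.94% of all loci. CD274, which encodes PD-L1, was at 0.51, 0.676 and 0.446 FPKM in Control, 1.01, 1.08 and 1.08 in YAP-S127A and 2.12, 3.5 and 2.43 in YAP-2SA, 2.53-fold higher (adjusted p = 0.0048). The groups did not overlap, but the first step had an adjusted p of 0.222 and the gene was unresolved. PDCD1LG2, the gene of PD-L2, was also unresolved, at 0.0841 ± 0.0974, 0.44 ± 0.113 and 1.56 ± 0.421 FPKM, and PVRL2, a nectin that binds checkpoint receptors, was graded at 10.3 ± 1.88, 19.8 ± 1.42 and 43.9 ± 2.38. CDH6, a type II cadherin, rose from 0.142 ± 0.0645 to 1.61 ± 0.0632 and 8.58 ± 0.704 FPKM. PRRX1, a mesenchymal homeobox factor, was at 22.5, 25.7 and 30.9 FPKM in Control, 11.7, 16.6 and 13.8 in YAP-S127A and 0.497, 0.473 and 0.569 in YAP-2SA, a graded fall of 27.3-fold in the second step (adjusted p = 5.24e-08). SNAI1, a repressor of E-cadherin, fell in YAP-2SA only, from 13.2 ± 0.829 to 5.78 ± 0.253 FPKM. In that list of cadherins and EMT factors 3 of 15 were higher (20%) and 4 lower (26.7%), against 5.17% and 5.94% of all loci.

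At the 2-fold threshold, axon guidance and Wnt genes were lower more often than higher. With no fold threshold, at an adjusted p under 0.05 in limma, 13 axon guidance loci were higher and 14 lower. In the Wnt list 9 were higher and 12 lower at that p, and of all 15055 loci 2757 were higher and 2179 lower. The median second steps were 0.057 for axon guidance and -0.085 for Wnt, beside 0.020 over all tested loci. Of 42 tested axon guidance loci 10 were lower (23.8%, against 5.94% of all loci), 7 of them YAP-2SA only, and 3 were higher (7.14%, against 5.17%), all graded. NRP2, a semaphorin co-receptor, was at 15.6 ± 1.29, 17.1 ± 2.3 and 3.85 ± 0.27 FPKM, and the ephrin receptor EPHB3 at 6.58 ± 0.0644, 5.1 ± 0.841 and 0.733 ± 0.0283, while EPHA3 was graded at 23.6 ± 2.39, 15.7 ± 1.64 and 1.12 ± 0.164. SEMA3A and SEMA3F, secreted semaphorins, rose to 30.0 ± 0.936 and 16.5 ± 1.39 FPKM from 8.96 ± 1.4 and 5.8 ± 0.399. EPHB3 was YAP-2SA only, or unresolved without Control replicate 3, and kept its class in 15 of the 26 alternatives run on single genes. In the Wnt list 6 of 28 loci were lower (21.4%), 5 of them YAP-2SA only where 47.9% of all falls were, and 4 were higher (14.3%), 2 graded and 2 YAP-2SA only. The receptor FZD8 was at 14.9 ± 1.88, 12.8 ± 1.86 and 1.21 ± 0.164 FPKM and the secreted antagonist SFRP1 at 83.7 ± 10.5, 75.3 ± 3.78 and 24 ± 0.922, beside the graded rises of DKK1 and of WNT7A. In the Notch list 2 of 21 were higher (9.52%), HES4 as graded and HES2 as YAP-2SA only, and 5 were lower (23.8%), among them the target HES1, from 10.4 ± 0.464 to 0.931 ± 0.574 FPKM. NFATC2 and GAS7 were YAP-2SA only falls outside these lists. NFATC2, a calcineurin-dependent transcription factor, was at 41.4, 35.4 and 40.3 FPKM in Control, 34.6, 34.8 and 38 in YAP-S127A and 1.01, 1.01 and 0.921 in YAP-2SA, and GAS7, which binds actin, at 34.8 ± 1.13, 30.3 ± 2.49 and 0.708 ± 0.0853. The first step of NFATC2 was -0.12 ± 0.082 and its second -4.21 ± 0.082, with Control and YAP-S127A overlapping.

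**Figure D5:**
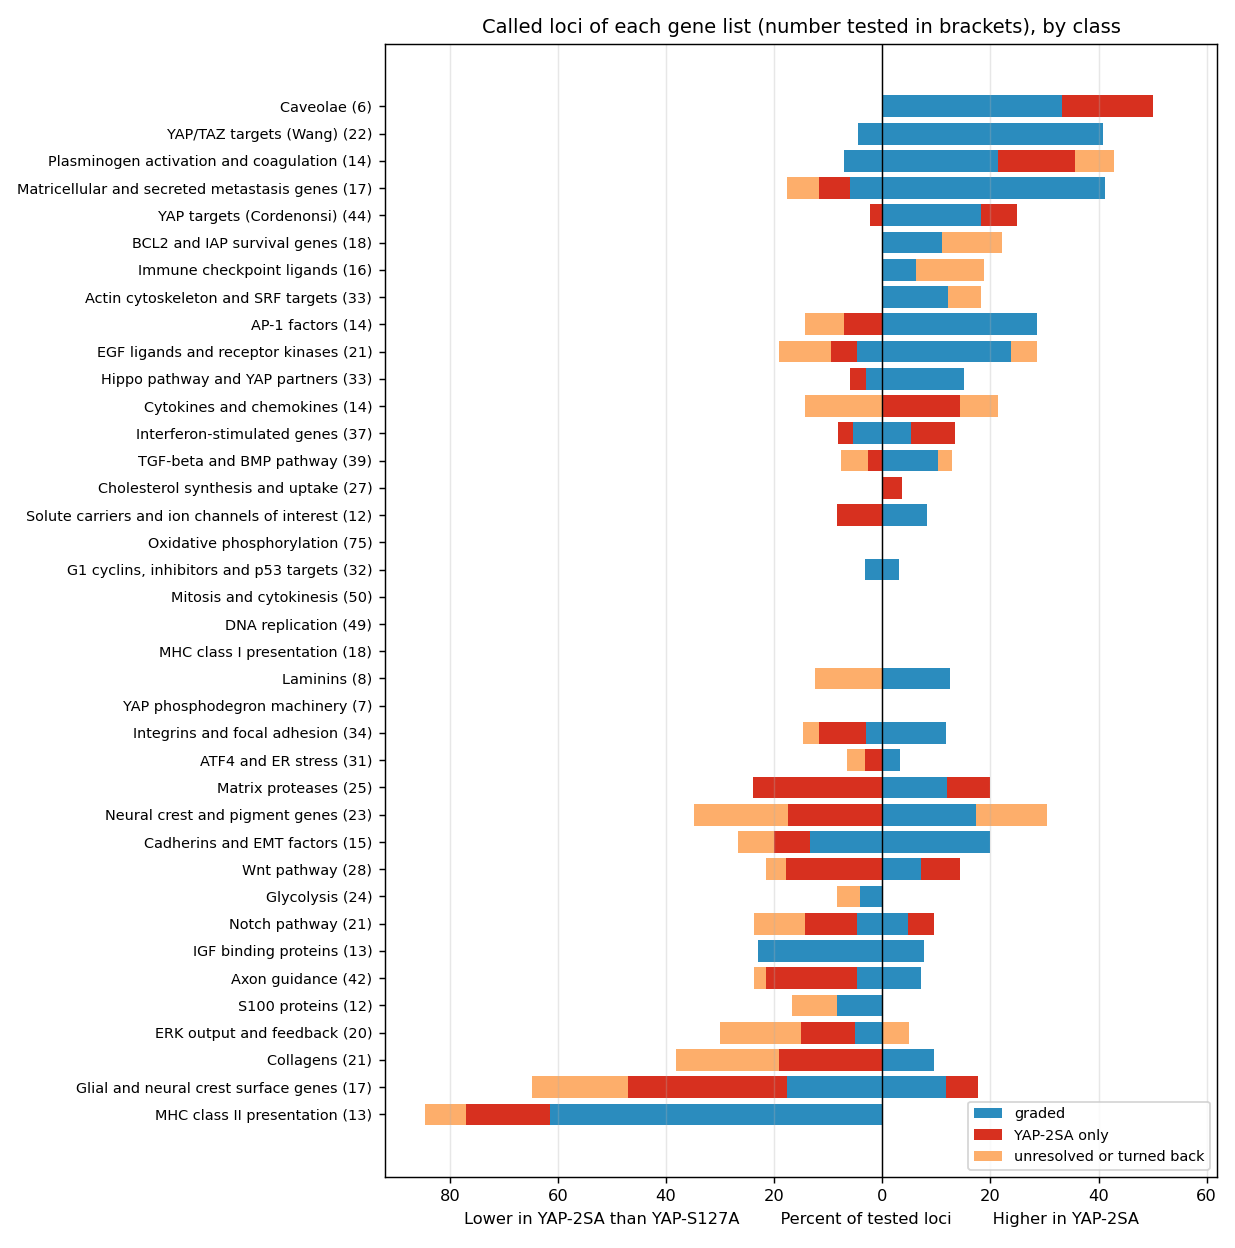
Percent of the tested loci of each gene list called higher (right) or lower (left) in YAP-2SA than in YAP-S127A, split into graded (blue), YAP-2SA only (red) and other called loci (orange), with the number tested in brackets. The signature lists of the study and the marker lists are not drawn. Of the lists drawn with over 10 loci tested, the Wang target list, coagulation and matricellular genes reach furthest right, MHC class II and glial genes furthest left, and the phosphodegron, MHC class I, replication, mitosis and respiratory chain lists have no bar.

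DNA replication, mitosis and respiratory chain genes had no called locus, where 5.17% of all loci were higher and 5.94% lower. None of 49 DNA replication loci and none of 50 mitosis loci was called, although limma gave an adjusted p under 0.05 for 17 and 32 of them, every one higher, and an unadjusted p under 0.05 for 25 and 37. Their median second steps were 0.159 and 0.297, beside 0.020 over all tested loci. At an adjusted p under 0.05 with no fold threshold, 2757 of all 15055 loci were higher and 2179 lower. None of 75 respiratory chain loci was called, with 10 higher and 3 lower at an adjusted p under 0.05 in limma and 15 and 5 at an unadjusted one. CDKN1C, a cyclin-dependent kinase inhibitor, fell from 15 ± 1.98 to 1.43 ± 0.205 FPKM and was graded. Of 18 survival genes 4 were higher (22.2%) and none lower. BCL2L1, the BCL-X gene, was graded at 25 ± 1.41, 38.3 ± 5.92 and 82.2 ± 3.39 FPKM, and the pro-apoptotic BIK was unresolved at 0.593 ± 0.0375, 1.21 ± 0.269 and 3.72 ± 0.261. Of 24 glycolysis loci none was higher and 2 were lower (8.33%), PFKFB3 at 38 ± 1.46, 29.6 ± 0.851 and 12.6 ± 1.05 FPKM and the locus of PFKFB4 and UCN2 at 40.8 ± 12, 25.3 ± 7.05 and 6.33 ± 0.838. Both encode enzymes that set the level of a glycolytic activator. In the ATF4 and ER stress list 1 of 31 was higher (3.23%, against 5.17% of all loci) and 2 lower (6.45% against 5.94%). STC2, a secreted stress protein, was graded at 2.1 ± 0.147, 5.68 ± 0.0892 and 19.7 ± 2.38 FPKM, and DDIT4, an mTORC1 inhibitor, fell from 76.6 ± 9.39 to 33.3 ± 13.6, in YAP-2SA only or, without Control replicate 3, unresolved. IGFBP6 rose to 332 ± 6.7 from 140.4 ± 17 FPKM, while IGFBP5 went from 11.6 ± 3.54 to 1.32 ± 0.0944 and the protease HTRA1 from 15.8 ± 1.8 to 0.997 ± 0.0778, both graded or, without Control replicate 3, unresolved. IGFBP5 kept its class in 13 and HTRA1 in 20 of the 26 alternatives run on single genes. SERPINA3, a protease inhibitor at a locus shared with SERPINA5, was at 234, 308 and 415 FPKM in Control, 133, 211 and 163 in YAP-S127A and 1.92, 3.35 and 2.31 in YAP-2SA. That second step was 66.9-fold (adjusted p = 3.52e-08), and the graded class rested on a first step with an adjusted p of 0.0448, lost without Control replicate 3. The graded class of SERPINA3 was kept in 12 of 26 alternatives. MGP, a matrix protein that inhibits calcification, was at 23.9, 36.8 and 23.7 FPKM in YAP-S127A and 0.168, 0.264 and 0.283 in YAP-2SA, 118-fold lower, with a first step of 0.42 ± 0.19 that was unresolved.

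At 29 loci (0.193%) YAP-2SA turned back a change seen in YAP-S127A, and 15 of these were short RNA loci, although only 335 short RNA loci were tested. FPKM of loci shorter than a library fragment are unsteady, and SNORD81, a small nucleolar RNA, was listed at means of 3177 FPKM in Control, 1.05 in YAP-S127A and 2901 in YAP-2SA. The others were 5 assembled loci without a name, 3 accessions and 6 named genes. All 6 genes rose in YAP-S127A and came back. MT1G, a metal-binding metallothionein, was at 0.344, 0 and 0.767 FPKM in Control, 7.44, 4.34 and 6.83 in YAP-S127A and 0, 0.653 and 0.876 in YAP-2SA (adjusted p = 9.44e-05). It was at 3.31, 3.97 and 3.45 in YAP-S94A,S127A as well. TUBB8 and TUBB4Q, near-identical beta-tubulin copies, were at 2.17 ± 0.315 and 2.85 ± 0.373 FPKM in YAP-S127A and at 0.449 ± 0.0908 and 0.574 ± 0.071 in YAP-2SA, and their values are uncertain for that reason. OLFML2A, an extracellular protein, WDR17 and JAKMIP2 made up the rest. JAKMIP2 kept the turned back class in 12 of the 25 alternatives that tested it.

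YAP-S94A,S127A, which cannot bind TEADs, served as a second baseline. The median of YAP-S94A,S127A minus Control was -0.04 over the 350 graded rises and -0.02 over the 185 YAP-2SA only rises, and 0.11 and 0.04 over the 140 and 428 falls. With YAP-S94A,S127A in place of Control, 336 of the 350 graded rises and 131 of the 140 graded falls kept their class, as did 147 of the 185 and 301 of the 428 YAP-2SA only loci, and the graded falls went from 140 to 257. CTGF was at 9.94, 12.8 and 10.9 FPKM and HLA-DRA at 372, 357 and 367 in those libraries, and SOX10 at 250.3, 287 and 278.

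The signature genes of the study were chosen in part on these libraries, so their counts are not independent evidence of a direction. Of 74 tested genes of the upward signature, 48 were higher in YAP-2SA than in YAP-S127A, 39 of them graded and 6 YAP-2SA only. Of 50 of the downward signature, 42 were lower, 7 graded and 24 YAP-2SA only. CPA4, a carboxypeptidase whose promoter is shown above, was at 6.98 ± 0.862, 63.4 ± 5.5 and 345 ± 23.5 FPKM, and IL7R, a cytokine receptor chain, at 2.42 ± 0.123, 12.3 ± 0.891 and 59.1 ± 6.35. KCNS3, a potassium channel subunit, fell in YAP-2SA only, from 5.68 ± 0.324 to 0.911 ± 0.263 FPKM.

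Promoter letters were counted for each class. RefSeq windows matched 919 of the 1260 called loci with a gene name. The TEAD letters GGAATG or CATTCC were in 15.6% of 231 graded rises and 13.2% of 106 YAP-2SA only rises, in 11.8% of 93 graded falls and 8.15% of 270 YAP-2SA only falls, beside 10.6% of 9772 tested genes and 14% of all 27305 windows. The AP-1 letters TGANTCA were in 7.36%, 2.83%, 9.68% and 5.93% of the same classes, beside 4.25% of tested genes and 7.76% of all windows. These shares describe those windows only, were not tested, and do not cover enhancers.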

How the data were processed

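RNA-seq libraries of A375 pools (TruSeq, 3 cultures for each of 4 vectors) were read from 1 deposited table. Per the labels, the authors made the log2 values, log2(FPKM + 1), with bcl2fastq 2.15.0, Bowtie2 2.0.0, TopHat2 2.0.4 and Cufflinks 2.0.2 on hg19. The sources give the culture time before harvest differently, so it is not stated here. Cufflinks FPKM hold no read counts, and whole reads could not be recovered, so that depth and counting error are unknown. Of 31588 entries, 3 were identical repeats and were removed. The values were fitted with limma 3.58.1 (R 4.3.3), over all 12 libraries with 1 mean per group and a mean-variance trend, on loci that reached 1 FPKM in 3 or more libraries, with p-values adjusted by Benjamini-Hochberg over all tested loci. Differences are in log2(FPKM + 1), with a pseudocount of 1. The script was checked on simulated data with effects planted only in well-expressed loci, so the check does not cover the classes of low loci.

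The members, classes and gene lists were chosen with earlier results of these data known. Genes were named as YAP1, the 8 largest called changes in each direction, the 6 largest of each class, and at most 5 of the largest called members of each list. Short RNA and unnamed loci, and loci whose groups overlapped, were left out of the first 2 sets. CYR61, CTGF, ANKRD1, AMOTL2, AXL, DKK1, KISS1, SOX10, CIITA, CD74 and HLA-DRA were added. Some genes that these rules name are not reported here. Others were named after their values were seen, to complete a list. Lists chosen on these libraries support nothing. Alternatives covered the filter, pseudocount, fold and class thresholds, scaling, trend, baseline, replicate block and each library. Sequences came from GRCh37 with GENCODE and from RefSeq (GRCh38.p14). Whether quantification used strand is not given in the sources used here, so overlapping and antisense genes may share reads.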

Additional observations from a re-analysis of the deposited data

Results flagged for a closer look

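In 3 of the 901 loci whose differences from Control passed an adjusted p of 0.05 in limma for both mutants, the effects of YAP-S127A and YAP-2SA had opposite signs, and YAP-2SA also differed from YAP-S127A at that threshold. OLFML2A, an extracellular olfactomedin-domain protein, had means of 2.80 FPKM in Control, 5.49 in YAP-S127A and 1.61 in YAP-2SA, a difference of -1.32 between the mutants on the log2(FPKM + 1) scale. SYNPO, which encodes the actin-associated synaptopodin, had 10.6, 15.8 and 8.12 FPKM and a difference of -0.88. WDR17 had 1.47, 2.61 and 1.02 FPKM and a difference of -0.82. In each of the 3 genes YAP-S127A was above and YAP-2SA below Control.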

How the results depend on the processing

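The alternatives were run singly on the 168 loci that the naming rules chose, and not on genes named later to complete a list. None of the 168 differences changed sign in an alternative that tested the locus, but the balance of counts did change. Lower loci outnumbered higher ones as reported (894 against 778), and the order turned with no filter (1111 against 1270), with a filter of 0.1 FPKM (1111 against 1180), with quantile normalization (797 against 810), without a fold threshold and with only the compared libraries (746 against 761). Adding 0.1 in place of 1 left 37 YAP-2SA only rises and 237 falls. A filter of 0.1 FPKM gave 524 YAP-2SA only rises, and no filter gave 616. A filter of 5 FPKM gave 382 higher and 466 lower loci, with 32 YAP-2SA only rises and 216 falls. Without a fold threshold there were 2757 higher and 2179 lower loci, 604 graded rises, and 1611 YAP-2SA only rises and 1448 falls. With the fold threshold on the log2(FPKM + 1) scale there were 563 lower loci, and 74 YAP-2SA only rises and 241 falls. An adjusted p of 0.01 gave 63 graded falls and 17 turned back loci, and leaving out short RNA loci gave 15 turned back. A narrower class margin gave 24 YAP-2SA only rises and 86 falls, and a margin of 2-fold gave 324 rises. YAP-S94A,S127A as baseline gave 257 graded falls. The YAP-2SA only rises thus depend on the margin, the pseudocount and the filter, and low levels limit them. Leaving out 1 library gave 553 to 796 higher and 826 to 900 lower loci, 281 to 340 graded rises and 82 to 138 graded falls, 81 to 187 YAP-2SA only rises and 339 to 455 falls, and 19 to 29 turned back. The graded falls were 84 without Control replicate 2, 93 without Control replicate 3 and 82 without YAP-S127A replicate 1, and turned back loci were 19 without Control replicate 2. The YAP-2SA only rises were 92, 81 and 83 without YAP-2SA replicate 1, 2 or 3. In those fits a locus at 1 FPKM in YAP-2SA alone cannot pass the filter of 3 libraries, but the loci lost that way were not counted. With the replicate number as a block the counts were 776 higher and 917 lower, 348 and 161 graded, 190 and 438 YAP-2SA only and 32 turned back. Nothing in the labels makes same-numbered cultures a pair, and deviations of same-numbered YAP-S127A and YAP-2SA libraries correlated at 0.098, 0.013 and 0.098, each library best with its own number. Of the 168 loci run singly, GPR15, CXCL3, HSP90B1 and IL32 went above an adjusted p of 0.05 in at least 1 alternative. With the fold threshold counted, the call was also lost for AXL in 5 alternatives, EHD2 in 4, JAKMIP2 in 3, TPM1 and IL12A in 2 each, and IL1A, CD274, PDCD1LG2, KRT5, WDR17, HEY1 and HEY2 in 1 each, and the YAP1 difference of -0.28 passed 0.05 without Control replicate 3. For the counts that moved the cause was not tested.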
